A study of Mus musculus with 6 samples.

Results

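In mouse esophageal organoids, the 755 of 25154 cells with the highest score over 7 interferon-stimulated genes are described here by their genes, layer and library origin. The rule that chose them fixes that they held many of the UMIs (unique molecular identifiers, each counting 1 captured transcript) of these genes, from 27.2% for Usp18 and 42.9% for Irf7 to 87.3% for Ifit3. Interferons are secreted proteins that epithelial and immune cells release on sensing viral nucleic acid or tissue damage. They bind receptors that activate the kinases Jak1 and Tyk2 and a transcription factor complex that includes Stat2 and Irf9. The complex binds a DNA element of repeated GAAA motifs to induce a large set of interferon-stimulated genes, or ISGs. In stratified epithelia such as the esophagus, basal cells marked by the keratins Krt5 and Krt14 divide, suprabasal cells switch to Krt13, and the most superficial cells make cornified envelope proteins of the Sprr family.

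The interferon-high cells were chosen by their readout. Each cell was scored by the mean deposited value of 7 ISGs, Ifit1, Ifit3, Ifit3b, Isg15, Rsad2, Usp18 and Irf7, and cells at or above the 97th percentile of the pooled scores were taken. Of 26808 barcodes, 25154 had at least 500 detected genes, and 755 of these, or 3.00%, were interferon-high cells. The deposited value is the natural log of 1 plus the cell's UMI count of a gene per 10000 of its UMIs. The threshold score was 0.486, the median score of the 755 cells was 0.780, and 77.2% of all cells scored 0. The last cell inside the threshold scored 0.4865 and the first outside 0.4858. Both the 100 cells just inside and the 100 just outside had UMIs of a median of 2 of the 7 genes. The threshold is a set percentile, so the interferon-high cells are a range of the score and are not called a type.

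The cells came from 6 libraries of C57BL6 esophageal epithelium. Cells positive for integrin-b1, a basal surface protein, that excluded the dead-cell stain DAPI were sorted by Cyto-ID, a dye of autophagic vesicles, into Cyto-ID Low and Cyto-ID High. Both sorted populations were then grown in Matrigel with EGF, Noggin, R-Spondin and the kinase inhibitor Y27632 for 15 days before dissociation, dead cell removal and 10x Genomics 3′ sequencing. Each group holds 3 libraries, labelled F2, M3 and F6, and the ages of the donor animals are not given in the sources used here. The Cyto-ID label thus describes the founder cells and not the cells sequenced. The protocols state 5000 to 7000 cells collected per library, beside 2855 to 5749 barcodes in the files. Median UMIs per kept cell ranged from 1940.5 to 10038, with Cyto-ID High M3, Low F6 and High F6 shallower than the other 3 libraries. No pair of libraries shared more than 10 barcodes, and no kept cell exceeded 10.0% mitochondrial UMIs.

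For the genes that chose the cells, those promoters are shown that held the core letters of the element through which interferon signalling acts. The core of the interferon-stimulated response element was searched as GAAANNGAAA, or TTTCNNTTTC on the opposite strand, in the RefSeq promoter windows (GRCm38.p6, 250 bases before to 50 after the gene start). Windows were found for 6 of the 7 genes, and 5 of the 6 held the core, against 3.99% of all 27025 genes in the table. Usp18 was not matched, and Irf7, the transcription factor that amplifies interferon production, held no such letters in its window. In the following upstream stretches, written 5′ to 3′ on the gene's strand, capitals mark every match.
Ifit1, chr19:34640745-34640853, plus strand: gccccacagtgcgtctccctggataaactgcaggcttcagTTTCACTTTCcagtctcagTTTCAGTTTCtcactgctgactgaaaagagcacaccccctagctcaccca
Ifit3, chr19:34583333-34583456, plus strand: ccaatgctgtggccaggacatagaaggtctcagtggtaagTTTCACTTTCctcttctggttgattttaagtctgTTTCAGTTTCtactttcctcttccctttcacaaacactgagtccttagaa
Ifit3b, chr19:34607729-34607852, plus strand: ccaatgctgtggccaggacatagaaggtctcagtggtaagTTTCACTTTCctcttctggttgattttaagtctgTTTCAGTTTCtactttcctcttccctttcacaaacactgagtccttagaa
Isg15, chr4:156200835-156200936, minus strand: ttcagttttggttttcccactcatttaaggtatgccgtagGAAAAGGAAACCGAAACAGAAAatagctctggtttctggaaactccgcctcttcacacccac
Rsad2, chr12:26456523-26456612, minus strand: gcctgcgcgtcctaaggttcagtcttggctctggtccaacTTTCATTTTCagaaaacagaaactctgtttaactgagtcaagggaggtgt

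Isg15 held 3 overlapping matches, Ifit1, Ifit3 and Ifit3b 2 each and Rsad2 1. The nearest match began 66 bases before the gene start in Isg15 and 154 in Ifit3b. The printed 124 bases of Ifit3 and Ifit3b were identical, and the longest coding transcripts of these neighbours on chromosome 19 matched at 98.0% of 1697 aligned bases. Reads of Ifit3 and Ifit3b, and to a lesser degree of Ifit1 and Ifit1bl1 at 71.5% identity, could therefore be divided or lost in counting, and their separate levels are uncertain. A match is a description of the letters in the window and no evidence of binding.

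The 7 genes differed widely in how far they carried the score. Levels are given as mean CPM, the mean over cells of a gene's UMIs scaled to 1000000 UMIs of the cell, and for these 7 genes they are a description of the choice and are not tested. Isg15, a ubiquitin-like protein that is joined to other proteins during infection, was at 1171, 1496 and 909 CPM in the interferon-high cells of Cyto-ID Low F2, M3 and F6. In Cyto-ID High F2, M3 and F6 it was at 1249, 967 and 816 CPM. All other cells held 16.4 to 46.4 CPM across the 6 libraries, and 682 of the 755 cells had an Isg15 UMI.

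Ifit3, which with the other Ifit proteins binds foreign RNA, was at 458, 801 and 577 CPM in the interferon-high cells of Low F2, M3 and F6. It was at 421, 707 and 157 CPM in High F2, M3 and F6, where the last library had 12 such cells. Irf7 ran from 348 to 522 CPM against 7.85 to 30.6 CPM in other cells. Usp18, which removes Isg15 from proteins and dampens receptor signalling, ranged from 34.3 to 231 CPM, and was highest in the 12 cells of High F6. Ifit1 ranged from 52.7 to 358 CPM. Rsad2, the antiviral enzyme viperin, contributed almost nothing, with 24 UMIs in 9 of the 755 cells and none in 3 libraries.

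Few cells carried the whole set. UMIs of all 7 genes were found in 2 interferon-high cells and of 4 or more in 396. Per library, cells with 4 or more ran from 79 of 132 cells (59.8%) in High F2 to 2 of 12 (16.7%) in High F6. Their share was 57.6% in Low F2 and 57.8% in Low M3. It was 35.3% in Low F6 and 32.6% in High M3, which like High F6 were shallower. These counts were not thinned, so they depend on depth. The 2-gene class held 161 cells and the 3-gene class 197. With each cell thinned to 1000 UMIs, Isg15 was found in 49.5% to 60.3% of interferon-high cells per library and in 1.53% to 4.31% of other cells.

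**Figure D1:**
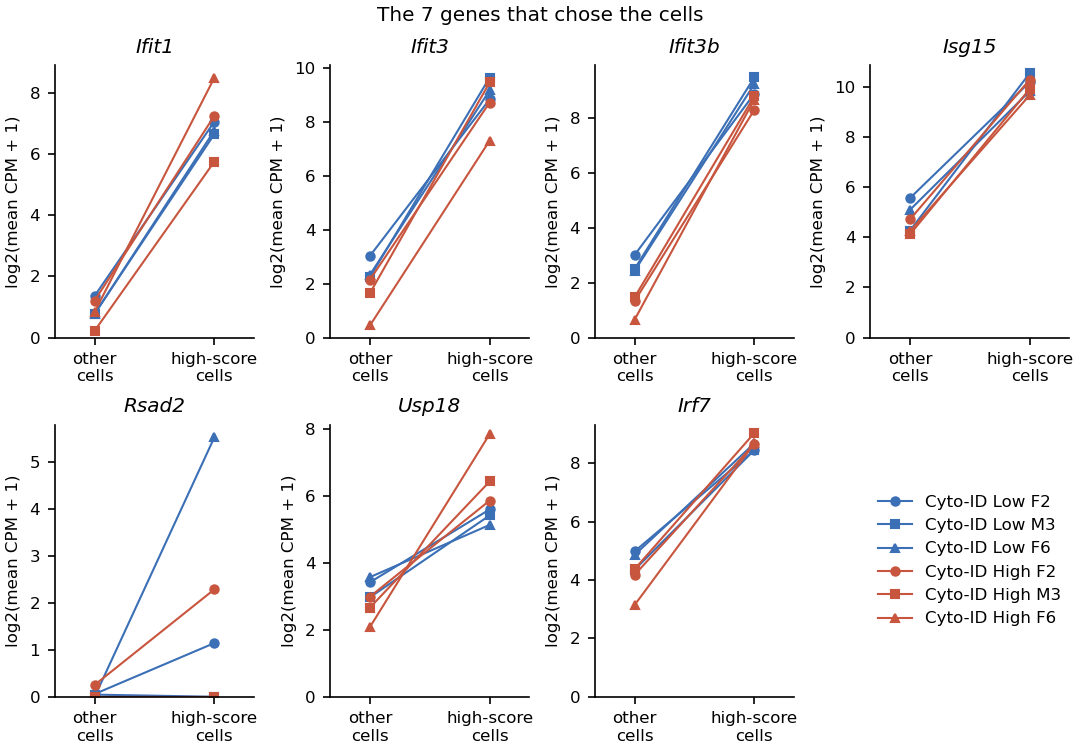
Mean level of each of the 7 genes that chose the cells, as log2 of mean CPM plus 1, in other cells and in interferon-high (high-score) cells. Each line is 1 library, blue for Cyto-ID Low and red for Cyto-ID High. Rsad2 stays at 0 in the interferon-high cells of 3 libraries.

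The interferon-high cells were largely differentiated cells. Sprr2f, a cornified envelope precursor of the superficial layer, was at 10880, 6060 and 4487 CPM in them in Low F2, M3 and F6, against 2080, 386 and 633 CPM in other cells. In High F2, M3 and F6 it was at 5678, 3487 and 1379 CPM, against 592, 188 and 88.6 CPM. The level was higher in the interferon-high cells in 6 of 6 libraries, by 3.43 ± 0.73 on the log2 scale (SD, n = 6; exact two-sided sign-flip test, Benjamini-Hochberg adjusted p = 0.0417 over the 4 layer genes). Among cells with at least 1000 detected genes, where High F6 kept only 2 interferon-high cells, the difference was 1.74 and did not pass (exact sign-flip test, adjusted p = 0.375).

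Both basal keratins moved the other way in every library. Krt14 was at 645, 2422 and 2878 CPM in Low F2, M3 and F6 and at 769, 3163 and 4105 CPM in High F2, M3 and F6. Other cells held 6443 to 15985 CPM, so the 2 sets did not overlap across libraries. Krt14 fell by 2.39 ± 1.17 and Krt5 fell by 1.59 ± 0.50 on the log2 scale (SD, n = 6; exact sign-flip test, adjusted p = 0.0417 each). Krt13, the suprabasal keratin, was higher in 5 of 6 libraries, with a mean log2 difference of 0.56 ± 0.41 that did not pass (exact sign-flip test, adjusted p = 0.0625). Among cells with at least 1000 detected genes the Krt14 and Krt5 differences were -2.45 and -1.68 and no longer passed (exact sign-flip test, adjusted p = 0.0625 each), and the Krt13 difference was -1.59.

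**Figure D2:**
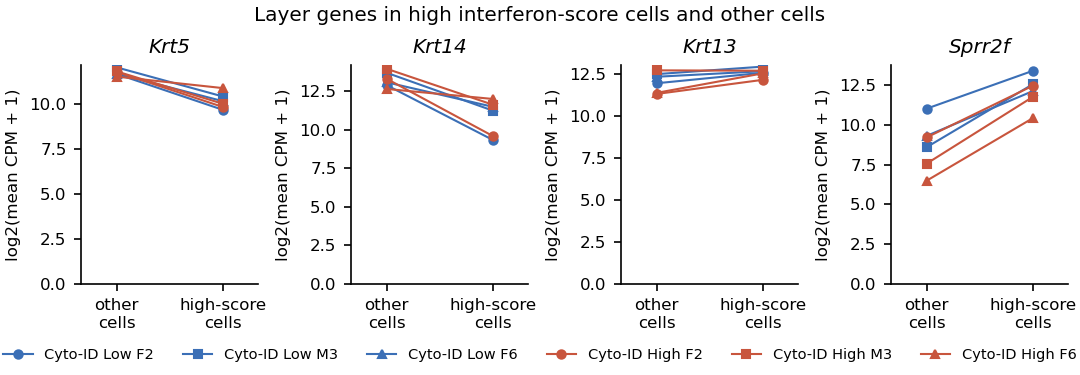
Mean level of the basal keratins Krt5 and Krt14, the suprabasal keratin Krt13 and the superficial gene Sprr2f, as log2 of mean CPM plus 1, in other cells and interferon-high (high-score) cells. Each line is 1 library; Krt5 and Krt14 go down and Sprr2f goes up in all 6.

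Layers were also read cell by cell, as ranges and not as types, after thinning each cell to 1000 UMIs. Cells with at least 3 Sprr2f UMIs were put in the Sprr2f range. The rest with at least as many Krt13 as Krt5 and Krt14 UMIs together were put in the Krt13 range, and all others in the Krt5/Krt14 range. By this rule a cell below the Sprr2f cut with no UMI of these keratins also falls in the Krt13 range. Of 752 interferon-high cells deep enough, 339 (45.1%) were in the Sprr2f range, 323 (43.0%) in the Krt13 range and 90 (12.0%) in the Krt5/Krt14 range. Of 24055 other cells, 3.84%, 15.3% and 80.8% were in these ranges. The mean difference over the 6 libraries was 31.5 ± 14.5 percentage points for the Sprr2f range, 28.8 ± 5.35 for the Krt13 range and -60.3 ± 13.1 for the Krt5/Krt14 range (SD, n = 6; exact sign-flip test, adjusted p = 0.0312 each). Among cells with at least 1000 detected genes these were 32.6, 20.2 and -52.7 points, and none passed (adjusted p = 0.0625 each). High F6 had 6 of its 12 interferon-high cells in the Krt5/Krt14 range, and Low F2 had 8 of 236 there. The cut at 3 UMIs is not a natural break, since 53 interferon-high cells had 2 Sprr2f UMIs and 35 had 3.

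The levels of the 7 genes in the interferon-high cells of each range are a description as well. Isg15 had a median over libraries of 845 CPM in the Krt5/Krt14 range, 923 in the Krt13 range and 1218 in the Sprr2f range, with ranges of 741 to 929, 860 to 1602 and 962 to 1632 CPM. Libraries with fewer than 10 such cells in a range are left out of these medians, which rest on 4, 5 and 5 libraries. The Isg15 levels of the Krt5/Krt14 range lay below all of those of the Sprr2f range and overlapped those of the Krt13 range. Ifit1 had medians of 28.3, 139 and 109 CPM in the same order, and Ifit3 of 675, 535 and 553 CPM. Ifit3 levels overlapped between all 3 ranges, and these differences were not tested.

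Markers of other epithelial states were summed by list. The summed level of 8 proliferation genes, Mki67 and Top2a among them, was 23.2 to 52.9 CPM in the interferon-high cells of the 6 libraries and 107 to 318 CPM in other cells, and the 2 did not overlap. Against other cells of the Sprr2f range alone, a comparison given below, none of 7 tested proliferation genes was called. Over all genes only 0.604% were called higher and 1.72% lower there, so a count of none among 7 genes says little. The median log2 difference of these proliferation genes there was -0.36, against -0.27 over all genes. The summed level of 8 superficial genes was 42091 to 105928 CPM against 3936 to 25352 CPM, most of it from Psca, and without Psca it was 3826 to 15740 CPM against 867 to 3645 CPM. The suprabasal list overlapped, at 4804 to 8741 CPM against 3832 to 8754 CPM, and its 8 genes were split. In the scaled limma comparison given below, Krt13 and Krt4 were higher in the interferon-high cells, Calm4, Krtdap and Tgm3 lower, and 3 not called. The unscaled Krt13 difference over 6 libraries, given above, did not pass. Unscaled Krt4 was higher in interferon-high cells in Low F2, M3 and F6. It was lower in High F2 and M3, at 203 and 676 against 291 and 1033 CPM. Within the Sprr2f range 3 of the 8, Krt4, Krtdap and Tgm3, were called lower and none higher, beside 1.72% and 0.604% of all genes. Markers of other cell types were nearly absent: of 9 immune genes, 8, Ptprc, Cd3e, Lyz2 and Adgre1 among them, had no UMI in any interferon-high cell, and their sum reached at most 0.157 CPM. The fibroblast genes Col1a1, Col1a2, Dcn and Lum, the endothelial genes Cdh5 and Kdr, and Des, Myh11, Dct and Mlana were also at 0. Among other genes of these lists, Acta2 had 21 UMIs in 6 interferon-high cells and reached 9.77 CPM in Low F6, Pmel had 7 UMIs, Pdgfra 3, and Csf1r and Pecam1 1 each.

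Interferon-high cells were deeper than other cells in every library, with median UMIs of 9566.5 against 7731 in Low F2, 8172.5 against 6047 in Low M3 and 4452.5 against 2685 in Low F6. In High F2, M3 and F6 they held 11048 against 10018.5, 3661 against 2346.5 and 2270 against 1939 UMIs. Median detected genes were lower in interferon-high cells in Low F2 (2089 against 2318), High F2 (2221 against 2617) and Low M3 (1579.5 against 1943). They were higher in High M3, Low F6 and High F6. Within the Krt13 range interferon-high cells were shallower in Low F2, High M3 and High F6. In the Krt5/Krt14 range they were shallower in Low M3 only, with 3202 against 5689 UMIs. The median mitochondrial share of all interferon-high cells was lower in every library, from 0.509% to 1.57% against 1.60% to 2.61%. Within the Sprr2f range the order was mixed. There it was 0.948% against 0.881% in Low F2, 0.685% against 0.749% in Low M3 and 0.384% against 0.429% in Low F6. In High F2 and M3 it was 1.23% against 1.14% and 0.509% against 0.609%, and the 1 such cell of High F6 held 1.39% against 1.09%. The score depends on depth, so these values are a description, and their part in the share of interferon-high cells was measured only by thinning. For genes, weighting the other cells to the interferon-high cells' depth gave 4680 calls in place of 5261.

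The share of interferon-high cells was lower in the Cyto-ID High library of each replicate label. It was 6.65% in Low F2 and 3.03% in High F2, 3.88% in Low M3 and 1.99% in High M3, and 2.55% in Low F6 and 0.268% in High F6. The groups overlapped, since High F2 lay above Low F6. The means were 4.36 ± 2.09% for Low and 1.76 ± 1.39% for High (SD, n = 3 each), a difference of -2.60 points that was within the spread between libraries (exact two-sided permutation test, p = 0.20, where 0.10 is the smallest that 3 against 3 can give). Over the 3 label pairs an exact sign-flip test gave p = 0.25, its smallest value. When cells were thinned to 1000 UMIs before scoring, ties at the threshold of 0.343 raised their number to 1881, and the shares ranged from 7.75% to 13.3% in Low and from 2.79% to 7.80% in High.

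Within the Sprr2f and Krt13 ranges the share was again lower in the High library of each label, and the groups overlapped. Of Sprr2f-range cells, 29.5% (140 of 475) were interferon-high in Low F2, 37.7% (98 of 260) in Low M3 and 15.9% (21 of 132) in Low F6. In High F2, M3 and F6 the shares were 20.6% (52 of 252), 26.2% (27 of 103) and 2.50% (1 of 40). High minus Low was -11.2 points (exact permutation test, p = 0.40). In the Krt13 range 10.1 ± 3.82% of Low and 5.87 ± 5.45% of High cells were interferon-high, and in the Krt5/Krt14 range 0.568 ± 0.208% and 0.371 ± 0.186% (SD, n = 3; exact permutation p = 0.40 and 0.30). The Krt5/Krt14 range did not keep that order in F2, where the share was 0.331% in Low and 0.451% in High, beside 0.652% and 0.504% in M3 and 0.721% and 0.158% in F6. From basal to superficial range the share therefore went up in the mean of both groups. In each of the 6 libraries it was also lowest in the Krt5/Krt14 range and highest in the Sprr2f range.

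**Figure D3:**
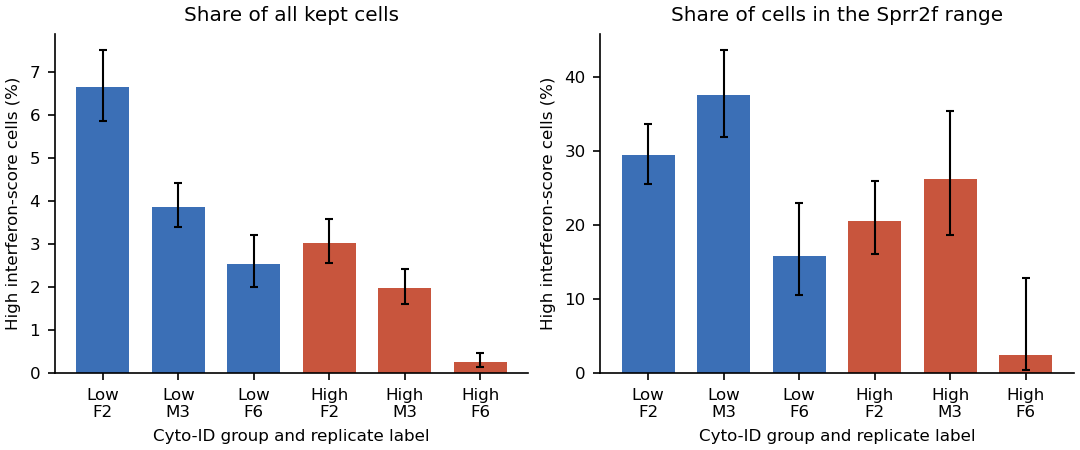
Percent of cells that are interferon-high in each library, among all kept cells (left) and among cells in the Sprr2f range (right). Bars are single libraries and lines are 95% Wilson intervals that cover counting error only. Cyto-ID High F6 is lowest in both panels, at 0.268% and 2.50%, and the 2 groups overlap.

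Outside the 7 genes, the listed interferon pathway was broadly higher in the interferon-high cells. Average profiles of interferon-high and other cells were compared within libraries by limma on log2 of mean CPM plus 1, in the 5 libraries with at least 20 such cells, so High F6 is not in these values. Of 11852 genes tested, 16.4% were higher and 28.0% lower in the interferon-high cells at an adjusted p under 0.05. This background holds the layer differences as well, and the share of a list that passed is read against it. Log2 differences are TMM-scaled and the CPM levels beside them are not, so a printed difference need not match the log2 ratio of the levels beside it. With cells' own totals in place of TMM scaling, which moved the median gene from -0.31 to -0.78 on the log2 scale, 1013 genes were higher and 6398 lower. With High F6 added at a minimum of 10 cells, 746 of 11949 genes were higher and 2888 lower, in place of 1947 and 3314. The higher count was 1120 at the 99th percentile and 1146 with summed CPM of the 7 genes as the score. The 7 genes held 19658 UMIs in the interferon-high cells and 9849 in all others. The same cells gave both the score and these profiles, so the values describe what accompanied the 7 genes.

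Among interferon-induced effectors, 28 of 36 tested genes were higher and 2 lower, with a median log2 difference of 1.50 against -0.31 over all genes. Ifit1bl1, a relative of Ifit1 in the same cluster, was at 1037, 1182 and 825 CPM in the interferon-high cells of Low F2, M3 and F6 and at 811 and 411 CPM in High F2 and M3. In other cells it was at 9.77 to 37.0 CPM, so the 2 sets of cells were far apart in every library. Its log2 difference was 6.16 ± 0.20 (SE, n = 5; limma adjusted p = 9.58e-09), the largest of any gene outside the rule that met the level filter. Oasl2, of the family of RNA-sensing OAS proteins, rose from 1.82 ± 1.24 to 51.7 ± 12.5 CPM (SD, n = 5; limma adjusted p = 4.64e-07), and Rtp4 from 1.23 ± 0.71 to 47.9 ± 13.5 CPM (adjusted p = 5.96e-07).

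Ifi44 and Apol9a rose by 4.52 and 4.76 on the log2 scale, and Oasl1 by 3.87. Bst2, or tetherin, which holds budding virus at the cell surface, rose by 2.41. Some classical ISGs did not follow. Ifitm2 and Ifitm3, membrane proteins that block viral entry, fell by 1.01 and 1.75 on the log2 scale (limma adjusted p = 8.87e-05 and 3.08e-05), and Ifitm3 was at 283 ± 180 CPM in the interferon-high cells and 1263 ± 473 CPM in other cells. Neither was called within the Sprr2f range, where the differences were -0.45 and 0.15 (limma adjusted p = 0.265 and 0.706). Ifit2, which lies in the same cluster as Ifit1 and Ifit3, had 7 UMIs in 3 of the 755 cells and was not tested.

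Among sensors and adaptors, 5 of 11 tested genes were higher and none lower, with a median log2 difference of 0.90. Zbp1, a sensor of left-handed nucleic acid, was at 29.3 to 78.9 CPM in the interferon-high cells and 0.866 to 2.48 CPM in other cells of the 5 libraries. It rose by 4.83 ± 0.32 on the log2 scale (SE; limma adjusted p = 6.11e-07). The ubiquitin ligase Trim25 rose by 2.56, Dhx58 by 2.08 and Ddx58, which encodes RIG-I, by 0.95. Mavs, Myd88 and Ticam1, the adaptors downstream of the sensors, did not pass, with log2 differences of 0.90, -0.15 and -0.55.

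Of receptors and signal transducers, 7 of 18 were higher and 1 lower, with a median of 0.33. Irf9 and Stat2, which act together at the response element, rose by 2.78 and 1.73 on the log2 scale (limma adjusted p = 1.06e-06 and 0.00336). Irf9 was at 35.0 to 90.9 CPM in the interferon-high cells and at 8.42 to 15.6 CPM in other cells of the 5 libraries. Ifnlr1, the type III interferon receptor of epithelia, rose by 1.71, and Ifngr2, a subunit of the interferon gamma receptor, by 2.34. The type I receptor subunits Ifnar1 and Ifnar2 had differences of -0.66 and -0.52 that did not pass.

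No interferon gene was expressed enough to test. Of 12 ligand genes, only Ifne had any UMI in interferon-high cells, where 10 of 755 cells (1.32%; 95% exact interval 0.637% to 2.42%) held 14 UMIs. Among other cells 24 of 24399 (0.0984%; 0.0630% to 0.146%) held 30. Ifne, a constitutive epithelial interferon, was named after its values were seen. The 10 cells were in 3 libraries, with 3 in Low F2, 5 in High F2 and 2 in Low M3, and none was found in High M3, Low F6 or High F6, where the upper limits of the exact intervals were 4.06%, 5.28% and 26.5%. Intervals over pooled cells cover counting error only, and cells of a library are not replicates. Ifnb1, Ifnl2, Ifnl3 and Ifnz had 2, 1, 3 and 12 UMIs in other cells and none in interferon-high cells.

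Regulators and ISG15-handling enzymes included 10 of 16 tested genes that were higher and 1 lower, with a median of 1.15. Herc6, the mouse ligase that attaches Isg15, rose by 3.52 on the log2 scale, and the activating and conjugating enzymes Uba7 and Ube2l6 by 2.19 and 1.07. Parp14 rose by 3.36 and Parp9 with its partner Dtx3l by 2.28 and 2.42. Socs3, a feedback inhibitor of cytokine receptors, fell by 1.37, and Socs1 had a difference of -0.64 that did not pass.

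Antigen presentation and interferon gamma type genes had 12 of 20 tested higher and 1 lower, with a median of 1.05. The class I heavy chain H2-K1 rose by 1.45 on the TMM-scaled log2 scale, at unscaled levels of 239 ± 40.3 and 435 ± 52.3 CPM, and its light chain B2m by 1.18. The immunoproteasome subunits Psmb8 and Psmb9 rose by 2.47 and 1.63, and Cd274, which encodes PD-L1, by 3.45. H2-Ab1, a class II chain, fell by 1.30. Of the NF-kB and chemokine list, 8 of 16 were higher and 2 lower, with a median of 0.86. Cxcl5, a neutrophil attractant, rose by 3.36 and Tnf by 2.53, whereas Cxcl10, a well-known interferon target, fell by 1.50 from 3.14 CPM in other cells. Cxcl10 is near the floor, with 4 UMIs in 2 interferon-high cells. In High F6, outside the fit, it was at 86.1 CPM in the 12 interferon-high cells and 3.55 CPM in other cells.

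The 25 largest rises outside the 7 genes held 7 genes of the fixed interferon lists and 18 others. Duoxa2 and Duox2, which make hydrogen peroxide at the surface, rose by 4.74 and 4.08 on the log2 scale, and the tetraspanin Tspan1 by 4.28. The mucins Muc1 and Muc20, the membrane proteases Prss8 and Prss22, the plasminogen activator Plat, the bacterial lipopolysaccharide receptor Cd14, Clca3b, Krt23, Timp2, Trim15, Vnn1 and Pllp were also among them, with rises of 3.74 to 4.51. Ifi207 and Gm36287 rose by 3.86 and 4.18, and Sprr2f itself by 3.91. The 10 largest falls were in Sostdc1, an inhibitor of BMP and Wnt signalling, at -3.94, then Palmd, the ligand Wnt10a, Ehd2, the Notch ligand Jag2, Vwa1, Slc6a6, the matrix protein Thbs1, Vav3 and Gga2, from -3.62 to -3.25. Of the 25 genes that rose, 18 had a promoter window and 3 held the response element core, beside 3.99% of all genes in the promoter table. Of the 10 that fell, 4 had a window and none held it, too few windows to compare with that share.

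Interferon-high cells were next compared with other cells of the Sprr2f range alone, a comparison added after the data were seen. It uses the 5 libraries with at least 20 interferon-high cells in that range, 338 interferon-high cells in all. Of 10591 genes tested, 64 (0.604%) were higher and 182 (1.72%) lower. Of the 64 genes, 21 (32.8%) were in the fixed interferon lists, compared with 62 of the 1947 genes (3.18%) higher over all cells. The lists made up 96 of the 10591 genes tested here and 101 of the 11852 tested over all cells. Of the 64, 63 were also higher over all cells, where 16.4% of genes were. The 338 cells are part of the interferon-high cells in that fit, so this overlap is largely built in. Within this range the median UMIs of interferon-high and other cells were 9769 and 8735 in Low F2 and 8263.5 and 9854.5 in Low M3, and interferon-high cells were deeper in 4 of the 5 libraries.

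Outside the 7 genes, Herc6 had the largest called rise within the Sprr2f range. Herc6, of the ISG15-handling list, rose by 3.86 ± 0.62 on the log2 scale, from 0.958 ± 1.41 to 23.7 ± 6.66 CPM (limma adjusted p = 0.00280), and Oasl2 by 3.67 ± 0.49 (adjusted p = 7.93e-04). Apol9b rose by 3.42, Ifit1bl1 and Rtp4 by 3.24 each, Bst2 by 2.89, Zbp1 by 2.86, Ifi44 by 2.68, Lgals3bp by 2.65 and Apol9a by 2.42. Irf9 rose by 1.98 and Parp14 by 1.81. H2-K1 did not pass here, with a difference of 0.50 (limma adjusted p = 0.0938). In all, 14 of 34 effectors, 1 of 10 sensors, 1 of 18 receptors and transducers, 2 of 16 regulators and 3 of 18 presentation genes were higher, beside the background of 0.604%. The list medians were 0.86 for effectors, 0.22 for receptors and transducers, 0.40 for regulators, 0.73 for presentation genes and -0.0028 for sensors, against -0.27 over all genes.

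Other genes also rose within the Sprr2f range, and Cxcl5 was the 1 gene higher of 14 tested in the NF-kB and chemokine list. Cybb and Cyba, the 2 chains of the phagocyte NADPH oxidase membrane core, rose by 2.08 and 1.54, Clu, a secreted chaperone, by 1.82, Cxcl5 by 1.91, Muc1 by 1.92 and Cd14 by 1.74. Fcmr, Ifi207, Steap4, Slfn2 and AW011738 rose by 1.43 to 2.05, and Ifi35 and Oasl1 of the effector list by 1.64 and 1.40. Of the 25 largest rises, 19 had a promoter window and 6 held the response element core, beside 3.99% of all genes. The 6 were Apol9b, Ifit1bl1, Bst2, Apol9a, Cybb and Ifi207. The 10 largest falls included genes known from late cornification. Klk12, Klk13 and Klk8, proteases of desquamation, fell by 4.25, 3.94 and 3.34, Sprr1b by 4.12, the late cornified envelope genes Lce3a and Lce3c by 4.06 and 3.57, and Krtdap, Ly6g6c, Mt1 and Nat8l had differences from -3.79 to -3.10. Krt14 was also lower, and Sprr2f was not called. Without a term for the library 34 genes were called in place of 246, 13 of them higher.

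**Figure D4:**
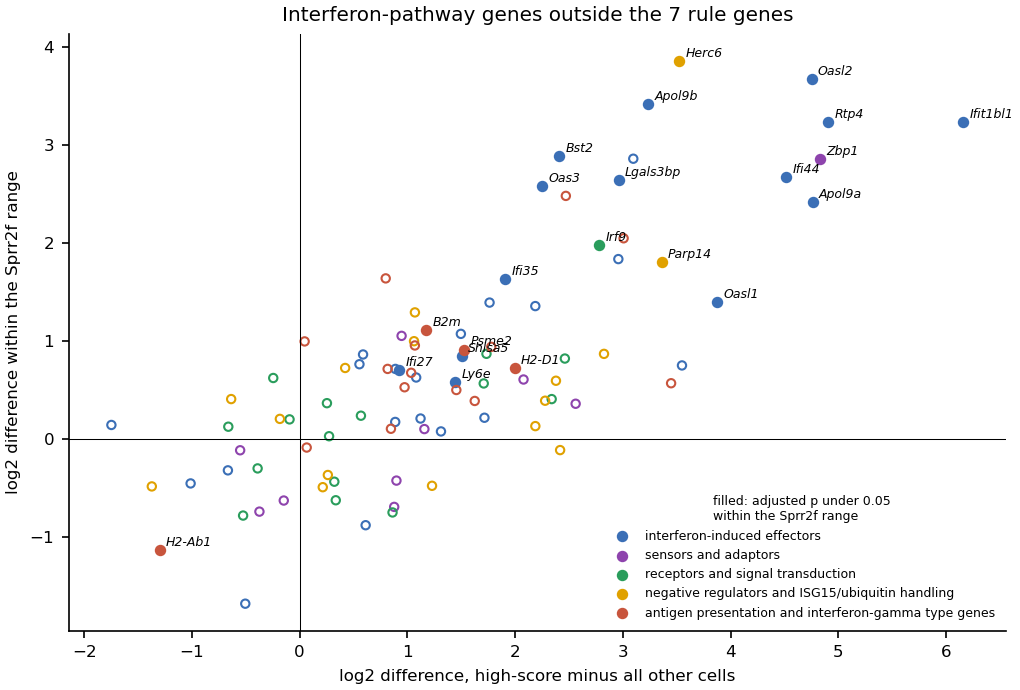
Log2 difference between interferon-high (high-score) and other cells for 93 of the listed interferon-pathway genes outside the 7 rule genes, over all cells (horizontal axis) and within the Sprr2f range (vertical axis). Points are genes, colours are lists, and filled points passed an adjusted p of 0.05 within the Sprr2f range. Ifit1bl1 lies farthest right, and H2-Ab1 is the filled point below 0.

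Interferon-high cells of the 2 Cyto-ID groups were then compared with each other. Of 9718 genes compared between 3 Low and 2 High libraries by limma, 1 gene (0.0103%) was called and 228 had an unadjusted p under 0.05. None of 35 effectors, 10 sensors, 18 receptors and transducers, 16 regulators or 19 presentation genes was called. That they did not pass does not show that the groups are alike. With the replicate label as a block, which leaves F2 and M3 as pairs, 34 genes were called, 6 higher and 28 lower in High.

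The called gene was Lcn2, the iron-binding antibacterial protein lipocalin 2. In interferon-high cells it was at 8.26, 4.17 and 4.08 CPM in Low F2, M3 and F6 and at 274 and 244 CPM in High F2 and M3, a log2 difference of 5.34 ± 0.46 (SE; limma adjusted p = 9.26e-05). A handful of cells carried it. In High F2, 12 of 132 cells had an Lcn2 UMI and 1 cell held 1057 of the 1146 UMIs. In High M3, 10 of 89 cells held 107 UMIs, 36 of them in 1 cell. Without the top cell of each library the levels were 59.4 and 218 CPM in High and 6.89, 2.27 and 0 CPM in Low. The 12 cells of High F6, which were not in the fit, had no Lcn2 UMI. The call was lost at the 95th and 99th percentiles, with summed CPM, without the 5% deepest cells and with at least 10 cells per library, and after thinning the difference was -0.23. The change from other to interferon-high cells also differed between groups for Lcn2 alone, 1 of 11859 genes (0.00843%). For falls from Low to High within interferon-high cells, where none passed, Cnfn, Trip10 and Wfdc12 had the smallest p at 20 CPM or more. Their log2 differences were -1.23, -1.90 and -4.35. Cnfn was at 316, 424 and 379 CPM in Low F2, M3 and F6 and at 188 and 139 CPM in High F2 and M3. In the 12 cells of High F6 it went the other way, at 470 CPM.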

How the data were processed

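Single-cell 3′ RNA was measured in 6 libraries. The authors deposited natural log (ln) values, 1 table per library: each cell's UMIs were divided by its total, multiplied by 10000, increased by 1 and logged, as read from the values, since each cell sums to 10000 when the log is undone. The submitters' processing notes name Cell Ranger 6.0.0, Seurat 4 and the builds mm10 and GRCm38, with no role given. UMIs were recovered from the deposited values, 100% of which were whole within a tolerance of 0.001. Doublets were not removed; an alternative left out the 5% deepest cells.

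The highest-scoring cells, gene lists and tests were chosen with earlier results of these data known. Listed genes were named by list, and otherwise the 25 largest rises and 10 largest falls with an adjusted p under 0.05, the same sign in every library and at least 20 mean CPM in the higher set; the same rule was applied within the Sprr2f range. Between groups, called genes were named, or else the 3 with the smallest p. Of 250 listed symbols, 5 had no row in the tables and were not analysed here. A few listed genes are counted in their lists but not reported here. Genes needed at least 1 CPM in 3 profiles. Differences between high-scoring and other cells were fitted with limma 3.58.1 (R 4.3.3) on log2 of TMM-scaled mean CPM plus a pseudocount of 1, with the library as a term, and Benjamini-Hochberg adjustment over all genes tested; fold changes on this scale understate low genes. The fit was tested only on data simulated from other-cell profiles with equal noise in both sets, which does not cover profiles averaged over few cells. Single values were tested by exact permutation or sign-flip tests. Nothing in the labels says that libraries came from separate animals, so p-values measure the spread between these libraries.

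Same-labelled libraries deviated together from their group means over 8878 genes, with correlations of 0.76 for F2, 0.58 for M3 and 0.15 for F6, all above 0.1. Low F2 and High F6, which differ in label, correlated at 0.17. The labels were used as pairs only in alternatives, the sign-flip test of the share and the replicate block within interferon-high cells. The main tests of High against Low did not pair the libraries. Wilson intervals are at 95%. Promoter windows are from RefSeq on GRCm38.p6.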

Additional observations from a re-analysis of the deposited data

Results flagged for a closer look

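The change in Lcn2 from other cells to interferon-high cells differed between Cyto-ID High and Low by 4.72 on the log2 scale (limma interaction test, adjusted p = 0.00333 over 11859 genes, 3 Low and 2 High libraries). The difference was called in 2 of 9 alternatives and lost in 7, among them thinning, where it was -0.17. Other cells held 65.0, 90.6 and 33.7 CPM in Low F2, M3 and F6 and 71.2 and 112 CPM in High F2 and M3, so Lcn2 was lower in the interferon-high cells of all 3 Low libraries and higher in those of both High libraries. In High F2, 1057 of 1146 Lcn2 UMIs of these cells were in 1 cell, and its part in the result was not tested by a fit; without the top cell of each library High F2 stood at 59.4 CPM, below its other cells, and High M3 at 218 CPM.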

How the results depend on the processing

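The share of interferon-high cells stayed lower in High under all 13 alternatives, and none of their tests could pass. The permutation test of 3 against 3 cannot go below 0.10, nor the sign-flip test of 3 pairs below 0.25, and with 1 library left out the lowest p was 0.10. Leave-one-out differences ran from -3.51 to -1.45 points, and in the Sprr2f range from -17.1 to -4.27. With 1 library left out, the sign-flip test of 5 libraries cannot go below 0.0625, so the layer results could not pass; their values ran from -1.78 to -1.51 (Krt5), -2.74 to -2.12 (Krt14), 0.44 to 0.68 (Krt13) and 3.28 to 3.64 (Sprr2f) on the log2 scale. For the ranges they ran from -65.0 to -58.0, 27.2 to 30.5 and 28.0 to 36.3 points for the Krt5/Krt14, Krt13 and Sprr2f ranges. Among cells with at least 1000 genes, where High F6 had 2 interferon-high cells, Krt5 stood at -1.68, Krt14 at -2.45, Krt13 at -1.59, Sprr2f at 1.74, and the ranges at -52.7, 20.2 and 32.6 points, none of them passing. Krt13 passed at the 95th percentile (0.70) and after thinning (0.48).

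Of interferon-high against other cells, 5261 genes were called and 3188 after thinning; leave-one-out counts ran from 4148 to 5199, and 664 of 665 values of the 35 named genes kept their call, Timp2 losing it in 1 with at least 10 cells per library. Irf2 and Nfkbia went to -0.0051 and -0.11 with unscaled CPM, Parp10 to -0.19 after thinning, and H2-T23 to -0.10 with at least 10 cells per library. In the Sprr2f range, 246 calls became 855 at a cut of 1 Sprr2f UMI, 138 after thinning and 151 without a filter. They became 160 without High F2 and 154 without Low M3, with leave-one-out counts of 154 to 258. Without the library term 34 were called.

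Within interferon-high cells, the 1 call became 0 at the 95th and 99th percentiles, with summed CPM, without the 5% deepest cells and with at least 10 cells per library, 3 after thinning and 34 with the replicate block; leave-one-out counts ran from 1 to 14, the highest without High F2. Without High F2 or High M3 the High group is 1 library, assumed to vary like the Low libraries. The difference between groups had 0 calls under these settings, after thinning and with at least 1000 genes. Thinned, Lcn2 was at -0.23 in High against Low and at -0.17 for that difference. The causes were not tested.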

Other observations

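Cell death genes were mixed in the interferon-high cells, and calls among them were near the shares over all genes. Of 15 tested, 3 were higher and 4 lower over all cells, beside 16.4% and 28.0% of all genes. None of 14 was called within the Sprr2f range by limma, beside 0.604% higher and 1.72% lower of all genes. The median log2 difference there was -0.41 against -0.27 over all genes. Casp8, the initiator caspase of death receptors, rose by 1.23 on the log2 scale, and Pmaip1 and Cdkn1a, both targets of p53, rose by 1.62 and 1.09. The necroptosis effector Mlkl and its kinase Ripk3, which act downstream of Zbp1, fell by 1.86 and 1.50, with means of 7.30 and 6.53 CPM in other cells (n = 5).

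Stress and RNA quality genes were also mixed. Of 11 tested, 6 were higher and 3 lower over all cells, beside 16.4% and 28.0% of all genes. None of 11 was called within the Sprr2f range, beside 0.604% higher and 1.72% lower of all genes. Of the 6, Atf3 had a TMM-scaled difference of 0.33, but its unscaled level was lower in the interferon-high cells of all 5 libraries, at 426 ± 166 against 500.5 ± 179 CPM, and Ddit3 was at 49.4 ± 17.8 against 48.1 ± 8.23 CPM. The nuclear RNA Malat1 rose by 1.75 on the TMM-scaled log2 scale, at unscaled levels of 12290 ± 5129 CPM in other cells and 30100 ± 16019 CPM in interferon-high cells (SD, n = 5), and Hmox1 by 1.69, whereas the heat shock gene Hsp90aa1 fell by 0.60.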
